A study of Mus musculus with 10 samples.

Results

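The genes described here are those of the step from oligodendrocyte precursor cell (OPC) to committed, premyelinating oligodendrocyte. They are 10 of the 19333 genes in the authors' deposited table of the OPC comparison: Nkx2-2, Myrf, Gpr17, Enpp6, Bcas1, Neu4, Itpr2, Tmem163, Tspan2 and Cd9, found by an exact match of the gene symbol. Their values played no part in the match, though the 10 were chosen with earlier results of these data known. The Apc-deleted OPC cultures came from Olig2-Cre:Apc-fl/fl mice (3 libraries), in which Cre under the control of Olig2, a gene also used by progenitors of motor neurons, removes the floxed part of Apc, and the controls were Apc-fl/fl littermates (3 libraries), here called wild type. Both were purified by immunopanning and kept for 3 days in medium with PDGFAA, a mitogen for OPCs, so both genotypes carry the floxed alleles and the same culture. A further 4 libraries came from cells sorted from spinal cord on day 18 of experimental autoimmune encephalomyelitis (EAE, an immune model of multiple sclerosis) in Pdgfra-CreER:Apc-fl/fl mice, 3 of them of CD11b+Gr-1+NK1.1+ cells labelled cytotoxic macrophages and 1 of CD4+ cells labelled Th1. All 4 share genotype and disease, and none has a control without Cre or disease. The labels name no strain, no age and no number of pooled animals.

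OPCs that leave the cell cycle pass through a short-lived state in which they are committed but have not yet made myelin. The transcription factors of that state, Nkx2-2 and then Myrf, bring on the genes of myelin, while Gpr17 marks the state and must decline again for maturation to be completed. Wnt signalling through beta-catenin is known to hold mouse OPCs short of maturation, and Apc belongs to the protein complex that marks beta-catenin for destruction.

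The authors' deposited table holds 1 value per gene for each column and none per library, so depth and spread of single OPC libraries are unknown here. Raw files of some OPC libraries were later replaced, per the series record, and the table does not name the libraries behind it. The level it gives is a mean normalized count, taken by the authors across libraries, and its change is a log2 fold change with a standard error (SE). The table names no numerator. Notum, Sp5, Lef1 and Axin2, which Wnt signalling induces, share 1 sign in it, and that sign was read as higher in Apc-deleted cells; their direction is therefore no finding, and every sign below rests on that reading. Apc itself stood at -0.14 (SE 0.13, adjusted p = 1) in the authors' deposited table, which checks neither the deletion nor the labels, since reads outside the deleted part still count for the gene. Markers of other cells were abundant. Per kilobase of exon, 10 neuron markers ran from 75.8 (Gad1) to 65447 (Tubb3) mean normalized counts in the authors' deposited table. There, 18 OPC identity genes ran from 26.5 (Pcdh15) to 5247 (Olig1), with the OPC receptor Pdgfra at 225 and Sox10 at 683. Sox10 is a factor of the whole oligodendrocyte lineage. The ranges overlap, and the values are called OPC values after the labels. In such bulk cultures, fewer cells of a kind and less RNA per cell cannot be told apart.

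RefSeq's table of promoters for GRCm38.p6 covered 7 of the 10 genes, and the 250 bases before the start are shown for the 4 of these that fell, so that their sequences can be set beside their changes. They are written 5′ to 3′ on the strand of the gene, and capitals mark matches, on either strand, to the motifs named after them.
Nkx2-2: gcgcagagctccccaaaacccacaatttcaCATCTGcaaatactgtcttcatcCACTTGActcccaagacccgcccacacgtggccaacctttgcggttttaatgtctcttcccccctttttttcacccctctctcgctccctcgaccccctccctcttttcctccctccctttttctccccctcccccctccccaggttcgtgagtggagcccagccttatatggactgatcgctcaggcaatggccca
Enpp6: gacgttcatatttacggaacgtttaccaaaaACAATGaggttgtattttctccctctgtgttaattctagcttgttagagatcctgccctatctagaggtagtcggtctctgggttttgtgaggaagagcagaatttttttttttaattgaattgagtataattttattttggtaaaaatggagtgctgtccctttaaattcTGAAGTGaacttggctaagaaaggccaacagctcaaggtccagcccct
Neu4: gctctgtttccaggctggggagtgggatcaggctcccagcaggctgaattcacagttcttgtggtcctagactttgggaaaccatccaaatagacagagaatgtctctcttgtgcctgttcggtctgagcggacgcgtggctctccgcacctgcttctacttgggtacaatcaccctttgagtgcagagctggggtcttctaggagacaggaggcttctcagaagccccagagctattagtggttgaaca
Cd9: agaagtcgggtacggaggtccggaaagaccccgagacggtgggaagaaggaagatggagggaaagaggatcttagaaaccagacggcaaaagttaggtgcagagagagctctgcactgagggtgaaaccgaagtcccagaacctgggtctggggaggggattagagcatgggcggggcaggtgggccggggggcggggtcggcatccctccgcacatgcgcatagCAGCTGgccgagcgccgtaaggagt
The window of Nkx2-2 is chr2:147186403-147186652 (minus strand), which lies within the longer gene model of GENCODE M21. That of Enpp6 is chr8:46986637-46986886 (plus strand), that of Neu4 chr1:94020243-94020492 (plus strand) and that of Cd9 chr6:125494761-125495010 (minus strand). The windows of Neu4 and Cd9 reach into the gene models of GENCODE M21, whose starts differ from those used for the windows. The letters searched were CTTTGAA and CTTTGAT for TCF/LEF factors, ACAAAG and ACAATG for SOX factors, CAGCTG and CAGATG for E-boxes, CTGGCAC for MYRF and TNAAGTG for NKX2-2. None of the 8 windows of the 7 genes held the TCF/LEF or MYRF letters, which 7.48% and 4.19% of all 32851 promoter windows of that length hold. Nkx2-2 and Enpp6 each held 1 match to the NKX2-2 letters (10.1% of all windows), CACTTGA in Nkx2-2 and TGAAGTG in Enpp6. E-box letters stood in the windows of Nkx2-2, Cd9 and Tspan2 (25.5% of all windows) and SOX letters in those of Enpp6 and Tspan2 (25.2% of all windows), while the windows of Neu4, Itpr2 and Tmem163 held no match to any of the motifs. A match of this kind is a description of the letters alone.

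The first comparison asks which of these genes differ in OPCs without Apc. By an adjusted p below 0.05 in the authors' deposited table, Apc-deleted cultures showed a decrease of 7 of the 10, namely Nkx2-2, Gpr17, Enpp6, Myrf, Neu4, Cd9 and Bcas1. Over all genes, 0.155% were called lower (30 of 19333) and 0.393% higher (76), or 0.548% in either direction. The other 3 genes, Itpr2, Tmem163 and Tspan2, did not pass. All 10 point values lay below 0, with a median log2 fold change of -0.99, against 0.00 over all genes in the authors' deposited table. The genes that fell make up 23.3% of the 30 called lower. The 10 genes were chosen with earlier results of these data known, so this share supports nothing by itself.

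**Figure D1:**
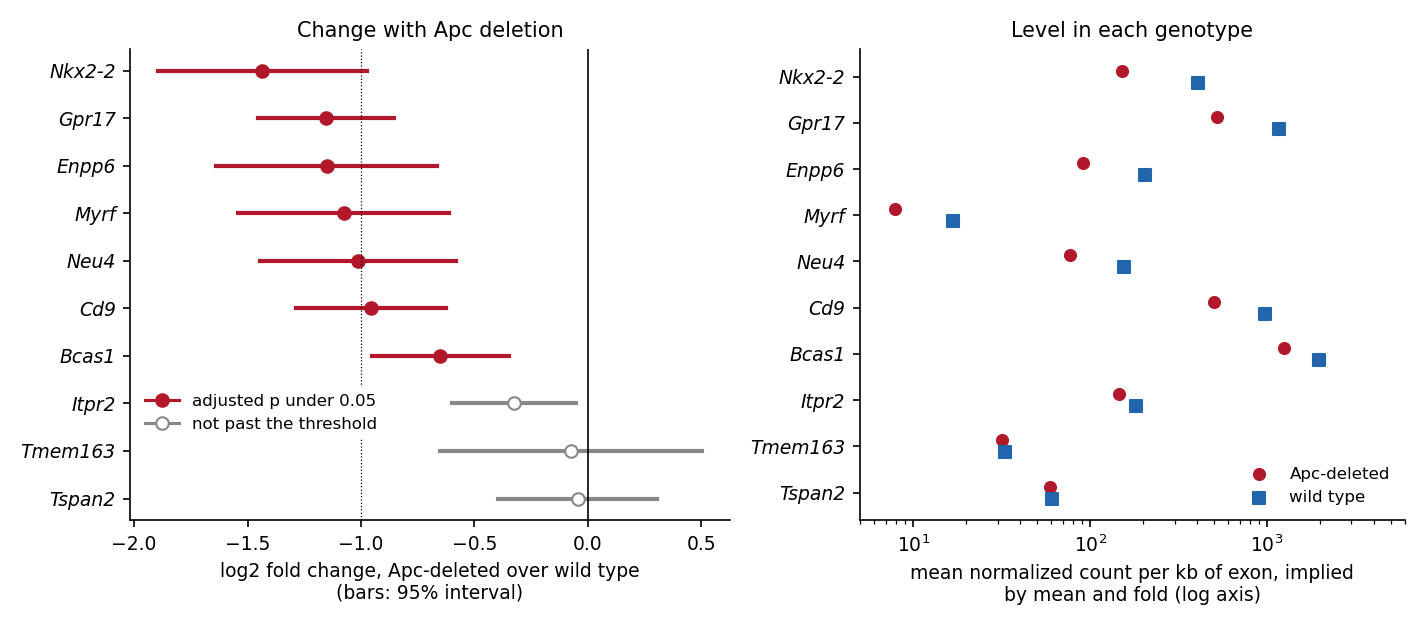
Left, log2 fold change of each gene (points) with its 95% interval (bars), Apc-deleted over wild type, from the authors' deposited table, with filled points past an adjusted p of 0.05 and a dotted line at a 2-fold decrease. Right, the mean normalized count per kilobase of exon on a log axis that the table's mean and fold imply for Apc-deleted (circles) and wild-type (squares) cultures; for 7 genes the left interval lies well below 0, and for Tmem163 and Tspan2 it spans 0.

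The transcription factors come first. Nkx2-2, a homeodomain protein that starts differentiation of OPCs (chromosome 2, 147177546 to 147194243, on the minus strand of GRCm38, the build of all positions here), had an implied mean of 433 normalized counts in Apc-deleted cultures, against 1171 in wild type. Its log2 fold change in the authors' deposited table was -1.44 (SE 0.24, adjusted p = 1.16e-06), with a 95% interval of -1.90 to -0.98. This leaves 36.9% of the wild-type level (interval 26.8% to 50.9%), the deepest fall among the 10 genes. Among all genes called lower it ranked 4 by fold and 6 by p in the authors' deposited table. An antisense gene, Nkx2-2os, covers 278 bases of its exons, 9.67% of them, but had a mean of 8.86 normalized counts and stood at -0.07 (SE 0.65, adjusted p = 1) in the authors' deposited table.

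Myrf, the membrane-bound factor that switches on the genes of myelin (chromosome 19, 10208272 to 10240748), fell to an implied 67.9 normalized counts in Apc-deleted cultures, against 143 in wild type. Its log2 fold change in the authors' deposited table was -1.08 (SE 0.24, adjusted p = 0.00208, interval -1.54 to -0.61), or 47.4% of the wild-type level. Myrf had the lowest level of the 10 genes. Its mean per kilobase of exon was 12.3 normalized counts, below the 35.8 of the median gene of the authors' deposited table, so its transcripts were scarce in both genotypes.

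Of the surface receptor and the enzymes of the committed state, all 3 fell. Gpr17, a G protein-coupled receptor that marks committed precursors (chromosome 18, 31942997 to 31949636), had an implied mean of 2713 normalized counts in Apc-deleted cultures, against 6041 in wild type. Its log2 fold change of -1.16 (SE 0.15, adjusted p = 2.14e-10, interval -1.45 to -0.86) in the authors' deposited table left 44.9% of the wild-type level, and by p it ranked 2 among all genes called lower. Gpr17 overlaps the gene Lims2 on the opposite strand, and the pair share 188 exon bases, 3.62% of those of Gpr17. Lims2, an adaptor at integrin contacts, fell as well in the authors' deposited table (-0.99, SE 0.18, adjusted p = 1.98e-05), from a level of 77.3 normalized counts per kilobase against 843 for Gpr17. No source used here says whether the counting used strand, so reads of the pair in the shared bases cannot be told apart.

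Enpp6, a choline-specific phosphodiesterase of newly formed oligodendrocytes (chromosome 8, 46986887 to 47096762), had an implied 588 normalized counts in Apc-deleted cultures, against 1306 in wild type. Its log2 fold change was -1.15 (SE 0.25, adjusted p = 0.00145, interval -1.64 to -0.66) in the authors' deposited table, or 45.0% of the wild-type level. Neu4, a sialidase that trims sialic acids from glycans (chromosome 1, 94020451 to 94028334), had an implied 356 normalized counts in Apc-deleted cultures, against 720 in wild type. It changed by -1.01 (SE 0.22, adjusted p = 0.00159, interval -1.45 to -0.58) in the authors' deposited table. These enzymes and Gpr17 thus lay close together, each at 44.9% to 49.5% of the wild-type level, with intervals that overlap.

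Bcas1, a cytoplasmic protein that labels oligodendrocytes as they begin to form myelin (chromosome 2, 170346991 to 170427845), was the most abundant of the 10 genes, at 1610 normalized counts per kilobase of exon in the authors' deposited table. Its implied mean was 4732 normalized counts in Apc-deleted cultures, against 7425 in wild type. With a log2 fold change of -0.65 (SE 0.15, adjusted p = 0.00716, interval -0.95 to -0.35) it kept 63.7% of the wild-type level in the authors' deposited table, the shallowest of the 7 decreases. Its interval and that of Nkx2-2 did not overlap. The antisense genes Bcas1os1 and Bcas1os2 share 440 and 34 exon bases with it, and in the authors' deposited table they stood at -0.67 (SE 0.29, adjusted p = 0.979) and -0.12 (SE 0.18, adjusted p = 1).

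The pair of tetraspanins, small membrane proteins that organise partner proteins, parted. Cd9 (chromosome 6, 125460266 to 125494791) had an implied 1021 normalized counts in Apc-deleted cultures, against 1980 in wild type. Its log2 fold change in the authors' deposited table was -0.96 (SE 0.17, adjusted p = 1.18e-05, interval -1.29 to -0.63). Tspan2 (chromosome 3, 102734529 to 102801513) had an implied 282 normalized counts in Apc-deleted cultures, against 291 in wild type. It stood at -0.05 (SE 0.18, adjusted p = 1, interval -0.40 to 0.30) in the authors' deposited table. The intervals of Cd9 and Tspan2 did not overlap, so the values of these relatives lie apart by more than the error of each, although no test of that difference is possible without values per library.

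The channel and the transporter did not pass either. Itpr2, a channel that releases calcium from the endoplasmic reticulum (chromosome 6, 146108299 to 146502223), had an implied 2155 normalized counts in Apc-deleted cultures, against 2702 in wild type. Its log2 fold change was -0.33 (SE 0.14, interval -0.60 to -0.05) in the authors' deposited table, with an unadjusted p of 0.0199 and an adjusted p of 0.989. Tmem163, a zinc transporter (chromosome 1, 127486546 to 127679548), stood at -0.07 (SE 0.29, adjusted p = 1, interval -0.65 to 0.50) in the authors' deposited table, with an implied 136 normalized counts in Apc-deleted cultures, against 143 in wild type. A 2-fold decrease lies outside the 95% intervals of Itpr2, Tmem163 and Tspan2, and also outside that of Bcas1, whereas no interval of the 10 lay wholly below a 2-fold decrease. Of the 45 pairs among the 10 genes, 15 had intervals that did not overlap, and all of these but the pair of Nkx2-2 and Bcas1 set a gene that fell against Itpr2, Tmem163 or Tspan2. Neighbours in the order from Nkx2-2 through Gpr17, Enpp6, Myrf, Neu4 and Cd9 to Bcas1 did not differ beyond their intervals.

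**Figure D2:**
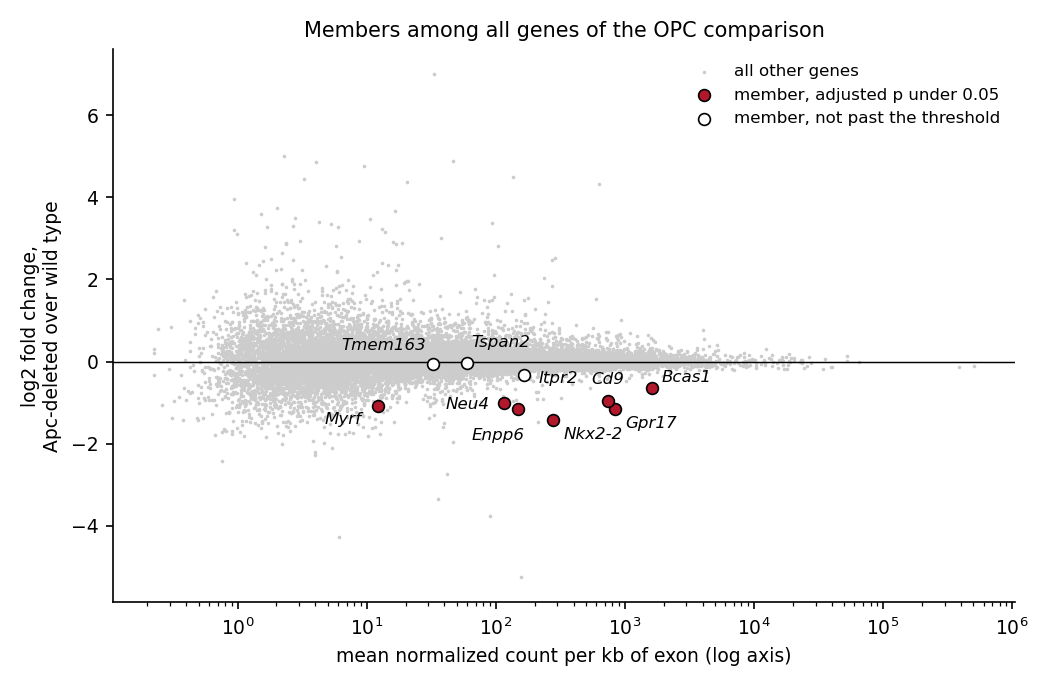
Log2 fold change (Apc-deleted over wild type) against mean normalized count per kilobase of exon (log axis) for all genes of the authors' deposited table (grey) and the 10 genes (large points, filled where past an adjusted p of 0.05). The genes that fell run from 12.3 (Myrf) to 1610 (Bcas1) normalized counts per kilobase, and the 3 that did not pass lie within that range.

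Level did not separate the genes that fell from those that did not. The plot of level against change shows the 3 genes that did not pass between Myrf and Bcas1, with means of 32.4 normalized counts per kilobase for Tmem163, 60.3 for Tspan2 and 164 for Itpr2 in the authors' deposited table. The remaining genes that fell had 116 (Neu4), 148 (Enpp6), 279 (Nkx2-2), 734 (Cd9) and 843 (Gpr17) normalized counts per kilobase. The SEs of all 10 genes in the authors' deposited table were larger than the median SE of the 200 genes nearest in mean, from 1.04 times for Myrf to 1.90 times for Enpp6. None of the 10 was measured more tightly than genes of like mean, whether or not it passed.

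With 3 libraries per genotype, the p-values of the authors' deposited table can be read against a t distribution with 4 degrees of freedom in place of the normal distribution. No member and no other gene then kept an adjusted p under 0.05, while 7 members and 242 genes in all had an unadjusted p under 0.05 by that distribution. Even Notum, at 4.90 (SE 0.49), did not pass, so hardly any gene could, and this reading cannot decide whether the calls hold. No source used here says that the OPC libraries came from separate cultures or animals, so their SEs may measure technical spread.

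Related gene lists were read beside these changes. Like the 10 genes, the lists were chosen with earlier results of these data known, so the contrast of their medians supports nothing by itself. Of 17 measured genes of committed and newly formed oligodendrocytes outside the 10, 13 pointed lower and 3 were called lower in the authors' deposited table, with a list median of -0.17. These 3 were Lims2, Bmp4 (-0.83, SE 0.18, adjusted p = 0.00243), a ligand that committed precursors express, and Tcf7l2 (-0.43, SE 0.12, adjusted p = 0.0499), a partner of beta-catenin in newly formed oligodendrocytes. Lims2 shares 188 exon bases with Gpr17, so whether its decrease is separate from that of Gpr17 cannot be told here. Tmem2, a hyaluronidase, pointed the other way at 0.49 (SE 0.15, adjusted p = 0.149) in the authors' deposited table. The kinase gene Fyn stood at -0.31 (SE 0.12, adjusted p = 0.819), Ust, a sulfotransferase, at -0.38 (SE 0.17, adjusted p = 1) and Kif19a at -0.49 (SE 0.26, adjusted p = 1) in the authors' deposited table.

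Among 21 activators of oligodendrocyte differentiation 1 was called lower, Tcf7l2, and the list median was -0.04 in the authors' deposited table. The deacetylase gene Sirt2 stood at -0.48 (SE 0.16, adjusted p = 0.312), Sox8 at -0.47 (SE 0.17, adjusted p = 0.457) and Zfp488 at -0.46 (SE 0.22, adjusted p = 1) in the authors' deposited table. Sox10, named after its values were seen because it marks the whole lineage, was at 0.00 (SE 0.20, adjusted p = 1, interval -0.39 to 0.40) in the authors' deposited table. Of 21 inhibitors of differentiation 2 were called higher, Lef1 and Axin2, which set the sign, and 1 lower, Bmp4, with a list median of 0.08 in the authors' deposited table. The next genes of that list by p in the authors' deposited table were Egr1 (0.24, SE 0.11), Sox5 (-0.27, SE 0.14), Hes1 (0.46, SE 0.28) and Jag1 (0.19, SE 0.13), each with adjusted p = 1.

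Genes of the stages before and after were read in the same way. Among 18 OPC identity genes, 3 were called lower and all 3 are members (Gpr17, Nkx2-2 and Neu4), while Matn4, a matrix protein, was called higher at 1.01 (SE 0.24, adjusted p = 0.0102) in the authors' deposited table. The list median was -0.01, and Pdgfra, Cspg5, Cspg4 and Olig1 stood in the authors' deposited table between 0.25 and 0.37, each with adjusted p = 1. Of 20 structural myelin genes 17 pointed lower, but none was called in either direction in the authors' deposited table, where the list median was -0.12. An unadjusted p under 0.05 was held by 4 of them, against 701 of all 19333 genes. Nearest to the threshold was Fa2h, a fatty acid hydroxylase for myelin lipids, at -0.85 (SE 0.24, adjusted p = 0.0669), followed by Cnp at -0.38 (SE 0.13, adjusted p = 0.338), Gjc3 at -0.49 (SE 0.20, adjusted p = 0.906) and Gjb1 at 0.56 (SE 0.24, adjusted p = 0.996) in the authors' deposited table.

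Of 28 measured paralogs of the 10 genes none was called in either direction in the authors' deposited table, and their median was 0.03. There, 4 had an unadjusted p under 0.05, against 701 of all 19333 genes. Those 4 were Cd53 (2.18, SE 0.67, adjusted p = 0.158), Cd82 (-0.56, SE 0.20, adjusted p = 0.397), Nkx6-1 (0.42, SE 0.16, adjusted p = 0.693) and Nkx2-1 (3.28, SE 1.49, adjusted p = 1), the last from a mean of 4.84 normalized counts.

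**Figure D3:**
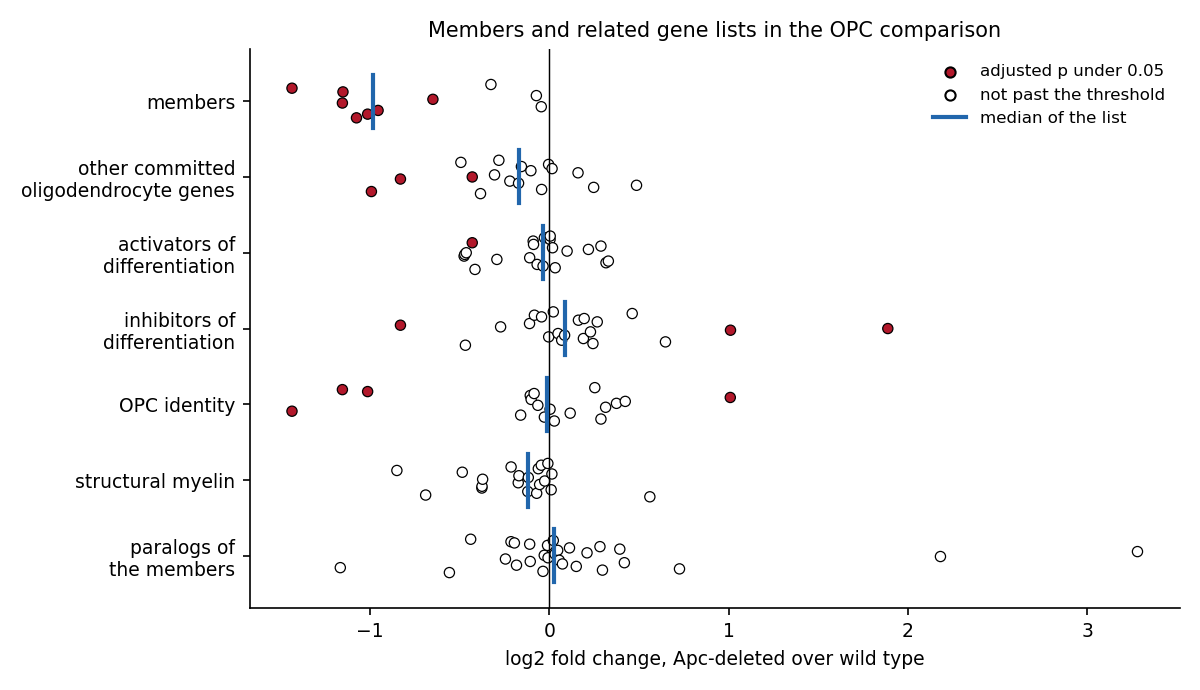
Log2 fold change (Apc-deleted over wild type) in the authors' deposited table for the 10 genes and 6 related lists, 1 point per gene, filled where past an adjusted p of 0.05, with a bar at each list's median. The median of the 10 genes lies at -0.99 and those of the other lists between -0.17 and 0.08, and 3 genes of the OPC identity list and 1 of the structural myelin list are members. Members and lists were chosen with earlier results of these data known.

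Markers of other cells were read beside these changes. Of 12 microglia and macrophage markers 11 pointed higher and 2 were called higher, Lyz2 (4.33, SE 0.96, adjusted p = 0.00243) and Cd68 (1.54, SE 0.36, adjusted p = 0.00729), in the authors' deposited table. The list median was 0.22 in the authors' deposited table. Implied levels of the list sum to 7267 normalized counts in Apc-deleted cultures, against 5058 in wild type, and most of that difference is Lyz2, with an implied 1568 normalized counts in Apc-deleted cultures, against 78.1 in wild type. Of 10 neuron markers 9 pointed lower and none was called (median -0.07), and the list sums to an implied 336361 normalized counts in Apc-deleted cultures, against 352618 in wild type. Astrocyte markers pointed lower for 8 of 10 genes (median -0.06), endothelial and pericyte markers for 7 of 8 (median -0.09) and neutrophil markers for 7 of 7 (median -0.18), and 2 of 3 measured T cell markers pointed higher (median 0.16), with none called in the authors' deposited table. The sums of astrocyte markers were 74617 normalized counts in Apc-deleted cultures and 77391 in wild type. The part of these cells in the decreases was not tested.

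The second question is whether the 10 genes are absent from the cells sorted from EAE cord. Depth was 3051730 estimated reads in the library labelled Th1 and lay between 23174908 and 23564215 in the macrophage libraries, for which separate animals are not stated. Each of the 4 holds a row for all 10 genes, blank for some. 4 of the 10 had more than 3 reads in every macrophage library, namely Cd9, Itpr2, Tspan2 and Bcas1, and 1 of the 10, Cd9, had more than 3 reads in the library labelled Th1. The share of all genes above 3 reads is not given here, so these counts do not set the 10 apart. At 1 TPM, 2 of the 10 passed in each macrophage library, against 6618 to 6635 of all 22064 genes. In the library labelled Th1, 1 of the 10 passed, against 2240 of 22064. Both lie near the shares over all genes, so the counts alone do not set the 10 apart. The labels are themselves in doubt. Neutrophil markers, led by S100a8, summed to between 433447 and 436534 TPM (transcript abundance corrected for length and depth) in the macrophage libraries. The T cell genes Cd3e, Cd3d, Cd3g and Cd4 had no read in the library labelled Th1, where Lck had 66.3 TPM. Neutrophil markers summed to 24392 TPM in the library labelled Th1, and microglia and macrophage markers to 12438 TPM, of which Lyz2 alone had 11006 TPM.

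Cd9 was the exception in level. It had 124.3, 125.0 and 123.0 TPM in the macrophage libraries (124 ± 1.01 TPM, SD, n = 3), ranking between 493 and 499 among all genes. In the library labelled Th1 it had 8.22 TPM, from 28 reads or 9.18 CPM (reads scaled to the depth of the library, exact Clopper-Pearson 95% interval 6.10 to 13.3). Cd9 is a known surface protein of many leukocytes and platelets as well as of oligodendrocytes. Itpr2 came next with 1.12, 1.15 and 1.18 TPM in the macrophage libraries (1.15 ± 0.030 TPM, SD, n = 3) from 495 to 530 reads each, and no read in the library labelled Th1. Tspan2 had 33 to 35 reads in each macrophage library (0.183 ± 0.0058 TPM, SD, n = 3) and Bcas1 15 to 23 reads (0.163 ± 0.042 TPM, SD, n = 3).

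The regulators and the most stage-specific genes were at or near 0. Myrf had 2, 1 and 1 reads in the macrophage libraries, Tmem163 had 1, 1 and 2, and Enpp6 had 0, 1 and 0. Nkx2-2, Gpr17 and Neu4 had no read in any of the 4 libraries. A count of 0 allows a level of up to 0.127 to 0.129 CPM in the macrophage libraries and 0.983 CPM in the library labelled Th1, by a limit of 3 reads that covers counting error only. The macrophage level of Bcas1, 0.797 CPM, lies under the limit of the library labelled Th1, so a count of 0 there does not exclude that level. Those of Tspan2, 1.45 CPM, and Itpr2, 21.9 CPM, lie above it. OPC identity genes as a list were likewise scarce. Of 18 OPC identity genes 1 reached 1 TPM in the macrophage libraries, Vcan (3.63 ± 0.079 TPM, SD, n = 3), and none in the library labelled Th1, and Pdgfra, Olig2 and Sox10 had no read in any of the 4. Over all 22064 genes, 6618 to 6635 reached 1 TPM in the macrophage libraries and 2240 in the library labelled Th1. Of 20 structural myelin genes 5 reached 1 TPM in each macrophage library, near the share over all genes there, and 1 in the library labelled Th1. Structural myelin genes summed to between 25.4 and 26.5 TPM in the macrophage libraries, led by Trf, Ndrg1 and Mbp, and to 7.13 TPM in the library labelled Th1.

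**Figure D4:**
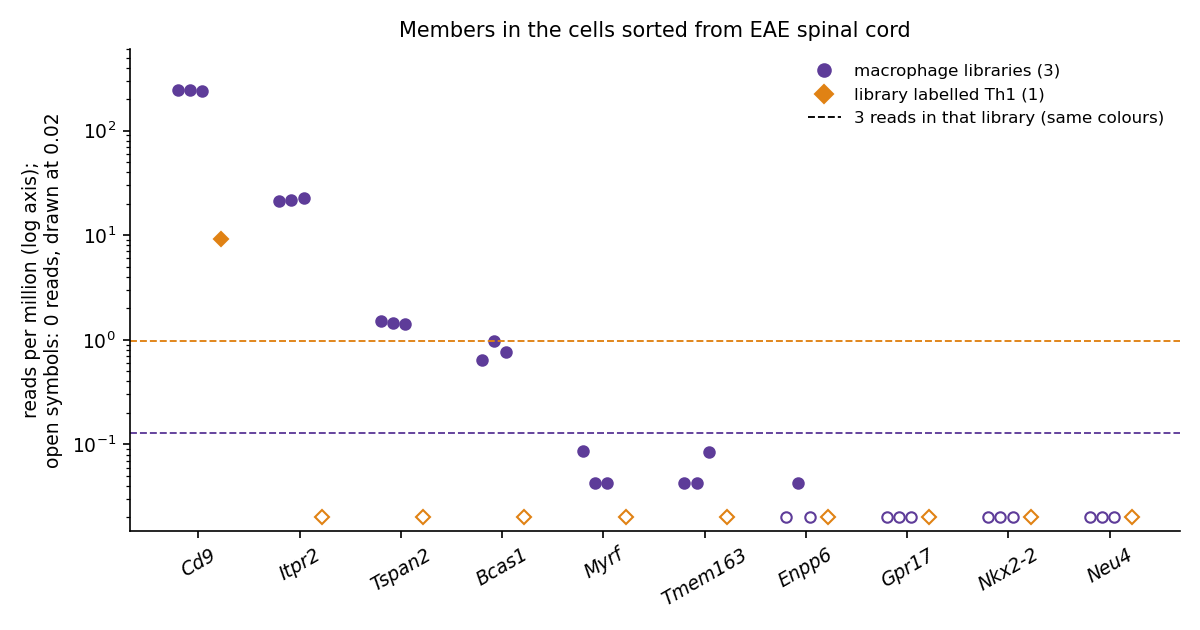
Depth-scaled reads (CPM, log axis) of the 10 genes in the 3 macrophage libraries (circles) and the library labelled Th1 (diamonds), with open symbols for 0 reads and dashed lines at 3 reads in the macrophage libraries and the library labelled Th1. Cd9 lies near 243 in the macrophage libraries and at 9.18 in the library labelled Th1, while Gpr17, Nkx2-2 and Neu4 have no read in any library.

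Relatives of these genes filled other places in the sorted cells. Among tetraspanins the macrophage libraries held Cd63 at 94.0 ± 1.40, Cd37 at 91.7 ± 1.69 and Cd53 at 57.9 ± 0.478 TPM (SD, n = 3), below Cd9. In the library labelled Th1 the order differed, with Cd82 at 445 TPM, Cd81 at 209 TPM and Cd53 at 30.2 TPM, all above Cd9. The sialidase of lysosomes, Neu1, had 3.70 ± 0.096 TPM in the macrophage libraries (SD, n = 3), where Neu4 had no read. Itpr1, at 0.873 ± 0.038 TPM, lay just below Itpr2 (SD, n = 3). Myrfl, the paralog of Myrf, had no read in any of the 4 libraries.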

How the data were processed

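Expression was measured by RNA sequencing in 10 mouse libraries, of which 6 were OPC cultures. Per the submitters' processing notes the genome was GRCm38; no aligner, counter or strand setting is named in the sources used here. The OPC table deposited by the authors has column names that DESeq2 writes. Its first value is a mean normalized count across libraries, a signal with no spread, as deposited by the authors. It also gives a log2 fold change with its SE, a test statistic (a score equal to their ratio, as checked) and p-values, all deposited by the authors and used unchanged. The immune files hold TPM and estimated counts of reads per gene made by the authors, per the file headers; CPM was computed here from the estimated counts. Blanks there were taken as 0, since a macrophage row was blank in all 3 files or in none and no listed row was 0 in all 3. 8 columns of other values were not used.

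Signs were turned to Apc-deleted over wild type. Intervals are the log2 fold change plus or minus the 95% normal width of its SE. Implied genotype means assume that the mean covers 3 libraries of each genotype, with equal weight. Exon lengths and positions come from GENCODE M21, where 99.81% of identifiers matched without their version. The planned fit per library could not be made without values per library, so the authors' adjusted p at 0.05 was read, and no test was made over lists. Alternatives were other thresholds (0.01 and 0.1), minimum means of 10 and 100, recentring and a t distribution, with Benjamini-Hochberg adjustment over all genes. The adjustment was tested on simulated data. For the t distribution the simulated shifts exceeded any statistic in these data, so the simulation says nothing about its result here. On average over genes, macrophage libraries differed pairwise by more than counting noise (mean chi-square per gene 1.30 to 2.63) and were kept as 3. That mean does not show that they came from separate animals, and it was not computed for the members alone. The members and lists were chosen with earlier results of these data known. Named genes are all members, the genes of each list past the threshold and the 4 next by p, with exceptions stated; 1 gene that this rule names is not reported here. Software was scipy 1.17.1, pandas 2.3.3 and numpy 2.4.6 under Python 3.11.15, and figures were drawn with matplotlib 3.10.9.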

Additional observations from a re-analysis of the deposited data

How the results depend on the processing

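No paired analysis was possible because the deposited OPC table holds no values per library, and for the same reason no OPC library could be left out. The count of 7 members called lower, and the 7 genes themselves, were the same at thresholds of 0.01 and 0.1, at minimum means of 10 and 100, with p adjusted anew and with both recentrings. The t distribution with 4 degrees of freedom gave 0 members and 0 genes called, 0 lower and 0 higher, and a smallest adjusted p of 1, since fewer degrees of freedom widen every p. Hardly any gene could pass at that setting, so it does not decide whether the calls hold. Over 80 values of single members under 8 alternatives, 73 kept direction and call, 7 lost the call, all by the t distribution, and 0 reversed. Over all genes, a threshold of 0.01 gave 69 calls (20 lower, 49 higher), and a minimum mean of 100 gave 46 higher. Recentring moved log2 fold changes by 0.0014 and 0.00072. At a threshold of 0.1, 1 structural myelin gene, Fa2h, was called lower. With the longest transcript in place of all exons the median level of the members moved to 199 from 156 normalized counts per kilobase, and Cd9 passed Gpr17 in order. Members detected in every macrophage library numbered 2 at 1 TPM, 3 at 1 CPM, 4 above 3 reads and 4 at 0.1 TPM, and 2 without any 1 of the macrophage libraries. A share over all genes is given at 1 TPM only, so the other counts have no background beside them.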

Other observations

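Genes next to the members on their chromosomes were read as a description of position. Within 200 kilobases of the 10 members lay 53 other tested genes, of which 1, Lims2 beside Gpr17, was called lower and 0 higher in the authors' deposited table, against 0.155% and 0.393% over all genes. Lims2 had an implied mean of 158 normalized counts in Apc-deleted cultures and 315 in wild type. Its reads in the 188 exon bases shared with Gpr17 cannot be told apart from those of Gpr17. The median log2 fold change of the neighbours in the authors' deposited table lay between -0.19, for the 4 around Nkx2-2, and 0.15, for the 7 around Cd9.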
